A study of Mus musculus with 16 samples.

Results

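Matrix metalloproteinases (MMPs), the related ADAM and ADAMTS proteases and the TIMPs, their tissue inhibitors, were followed as a gene family in mouse hearts with and without the lncRNA Cardinal. The members were the rows of the gene count matrix whose Ensembl ID carries a symbol made of Mmp, Timp, Adam, Adamts or Adamtsl and a number, with a summed raw count of at least 160 over the 16 libraries. Of 84 such symbols among the 55487 genes, 56 met this rule. The remaining 28 did not, and 17 of those had no count in any library. Mmp24 (summed count 165), Adam5 (167) and Mmp25 (176) lay just inside the limit, and Adam21 (110) and Mmp27 (79) just outside it. Each group held 4 libraries from the apex of the heart, taken 4 weeks after transverse aortic constriction (TAC), a narrowing of the aorta that puts the left ventricle under pressure load, or after a sham operation without ligation. The control mice (Ctrl, wild type in the labels) formed the groups Ctrl sham and Ctrl TAC. The Cardinal knockout mice, made with CRISPR/Cas9, formed KO sham and KO TAC. All mice weighed 25 to 30 g at surgery and, by the study's methods, were male; their exact age was not given in the sources used here.

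Matrix proteases are zinc enzymes. MMPs cut collagens, gelatin and other matrix proteins, and most are made as inactive proforms. ADAMs sit in the cell membrane and release the outer parts of other membrane proteins, whereas ADAMTS proteases are secreted and cut procollagens and proteoglycans. ADAMTS-like proteins share the ancillary domains of the ADAMTS proteases but lack the catalytic domain. TIMPs bind the active site of these enzymes, and the pairing of TIMP2 with MMP14 at the cell surface activates proMMP2. In the pressure-loaded heart this family is known for its part in collagen turnover and fibrosis. The transcripts reported here say nothing of enzyme activity.

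Total counts per library ranged from 53169437 to 79404714, and 21.9% to 28.8% of them came from mitochondrial genes. Cardinal (Gm12295) lay at 3.24 to 3.86 counts per 1000000 counts (CPM, with libraries scaled by TMM) in Ctrl sham and at 0.297 to 0.553 in KO sham. It lay at 2.69, 3.04, 3.37 and 8.02 in Ctrl TAC and at 0.276 to 0.371 in KO TAC replicates 1 to 3, but at 4.55 (377 counts) in the library labelled KO TAC 4. The Cardinal level of this last library contradicts its label, so the calls that rest on KO TAC were also made without it. By a two-sided exact permutation test over 70 relabellings KO against Ctrl gave p = 0.0286 in sham hearts, the smallest that 4 against 4 allows (0.0571 adjusted over 2 tests), and p = 0.114 in TAC hearts. In a second respect the TAC groups were uneven. The animal numbers of Ctrl TAC 2, 3 and 4 and of KO TAC 4 begin with 25, and those of Ctrl TAC 1, KO TAC 1 to 3 and all sham libraries begin with 3, so genotype in TAC hearts is largely tied to number series. What the number series stands for is not given in the sources used here.

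Promoter sequences are shown for Timp1, whose change after TAC was the greatest among the TIMPs, and for 4 of the 5 members that were higher in KO TAC than in Ctrl TAC, since these moved together. The letters are the 250 bases before the RefSeq start (GRCm38.p6), written 5′ to 3′, with GC boxes (GGGCGG on either strand) in capitals. Mmp2, the remaining member of the 5, had no entry. The windows lie at chr14:54431348-54431597 (plus strand), chr4:155653385-155653634 (minus strand), chr11:118355412-118355661 (minus strand), chr11:50601835-50602084 (plus strand) and chrX:20869916-20870165 (plus strand). For Mmp23 the window further upstream of its 2 is printed.
Mmp14: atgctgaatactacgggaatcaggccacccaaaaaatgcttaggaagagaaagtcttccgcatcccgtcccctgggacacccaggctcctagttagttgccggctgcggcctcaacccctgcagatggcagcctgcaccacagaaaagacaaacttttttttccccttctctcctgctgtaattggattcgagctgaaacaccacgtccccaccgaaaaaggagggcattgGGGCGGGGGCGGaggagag
Mmp23: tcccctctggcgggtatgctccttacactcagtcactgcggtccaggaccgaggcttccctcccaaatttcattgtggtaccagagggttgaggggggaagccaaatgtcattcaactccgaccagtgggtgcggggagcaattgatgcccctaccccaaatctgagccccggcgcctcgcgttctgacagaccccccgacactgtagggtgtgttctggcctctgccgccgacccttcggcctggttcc
Timp2: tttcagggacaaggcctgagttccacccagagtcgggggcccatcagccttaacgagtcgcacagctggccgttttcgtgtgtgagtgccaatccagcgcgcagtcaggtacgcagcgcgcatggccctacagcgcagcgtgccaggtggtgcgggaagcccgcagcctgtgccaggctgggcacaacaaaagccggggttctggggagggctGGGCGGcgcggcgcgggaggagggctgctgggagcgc
Adamts2: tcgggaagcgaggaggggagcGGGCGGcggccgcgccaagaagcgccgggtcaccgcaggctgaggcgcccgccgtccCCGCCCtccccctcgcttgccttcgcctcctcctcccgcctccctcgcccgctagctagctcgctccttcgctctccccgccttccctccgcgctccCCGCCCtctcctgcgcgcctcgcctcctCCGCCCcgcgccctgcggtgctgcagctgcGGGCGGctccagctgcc
Timp1: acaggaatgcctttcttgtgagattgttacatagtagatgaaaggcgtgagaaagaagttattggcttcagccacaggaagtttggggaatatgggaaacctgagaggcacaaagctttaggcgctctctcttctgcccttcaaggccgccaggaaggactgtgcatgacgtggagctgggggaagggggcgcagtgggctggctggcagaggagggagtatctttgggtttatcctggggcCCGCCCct
The genes themselves lie, in the same build, at chr14:54431612-54445364 (Mmp14), chr4:155650655-155653384 (Mmp23), chr11:118301069-118355740 (Timp2), chr11:50602084-50807573 (Adamts2), chrX:20870166-20874735 (Timp1) and chr8:92827291-92853420 (Mmp2). The Mmp14 window held 2 GC boxes, which began 19 and 13 bases before the start. The Timp2 window held 1 at 37 bases, the Timp1 window 1 at 8 bases and the Adamts2 window 5, and neither Mmp23 window held any. By the coordinates above, the Timp2 window lies inside the annotated gene, whose start is upstream of the RefSeq start. Of the 56 members 35 matched an entry, with 39 windows, and 59.0% of these windows held a GC box, against 32.7% of the 32851 windows of all genes. The AP-1 letters TGACTCA, on either strand, were in 10.3% of the members' windows (Adam19, Mmp3, Mmp12 and Mmp13) and in 4.46% of all windows. TATAAA, on either strand, was in 10.3% of the members' windows (Adamts1, Adamtsl2, Mmp3 and Mmp13) and in 12.4% of all windows. Such matches describe the letters of these windows only.

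The heart's transcript pool of this family was led by inhibitors. Per length (CPM per kb of annotated exon, mean over 16 libraries), Timp3 was highest at 37.4 and Timp2 followed at 24.7, ahead of Adamtsl5 (18.8), Mmp2 (16.1), Mmp15 (15.9), Adam9 (15.3), Adamts1 (14.6) and Adamtsl4 (10.3). These 8 were at 10 or more, 18 members were between 1 and 10, and 30 were under 1. Among the low ones were proteases familiar from inflamed tissue. Mmp9 lay at 0.124, Mmp12 at 0.0607 and Mmp13, a collagenase, at 0.172, while Mmp8, the neutrophil collagenase, summed to 34 counts over all libraries and was no member. Of 8 neutrophil markers, Ly6g had no count in any group. The 8 together summed to 1.05 to 1.66 CPM in Ctrl sham and 1.06 to 1.79 in KO sham. After TAC they summed to 1.25 to 2.37 in Ctrl hearts and 1.49 to 3.18 in KO hearts. Of the 3 tested, 0 were called after TAC in Ctrl hearts, where 20% of all genes were. In KO hearts 1 was called higher, where 17.8% of all genes were. For 16 members an exon overlaps that of another gene, Syn3 for Timp3 and Syn2 for Timp4 among them, and whether the counting used strand is not given in the sources used here, so these levels are uncertain.

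**Figure D1:**
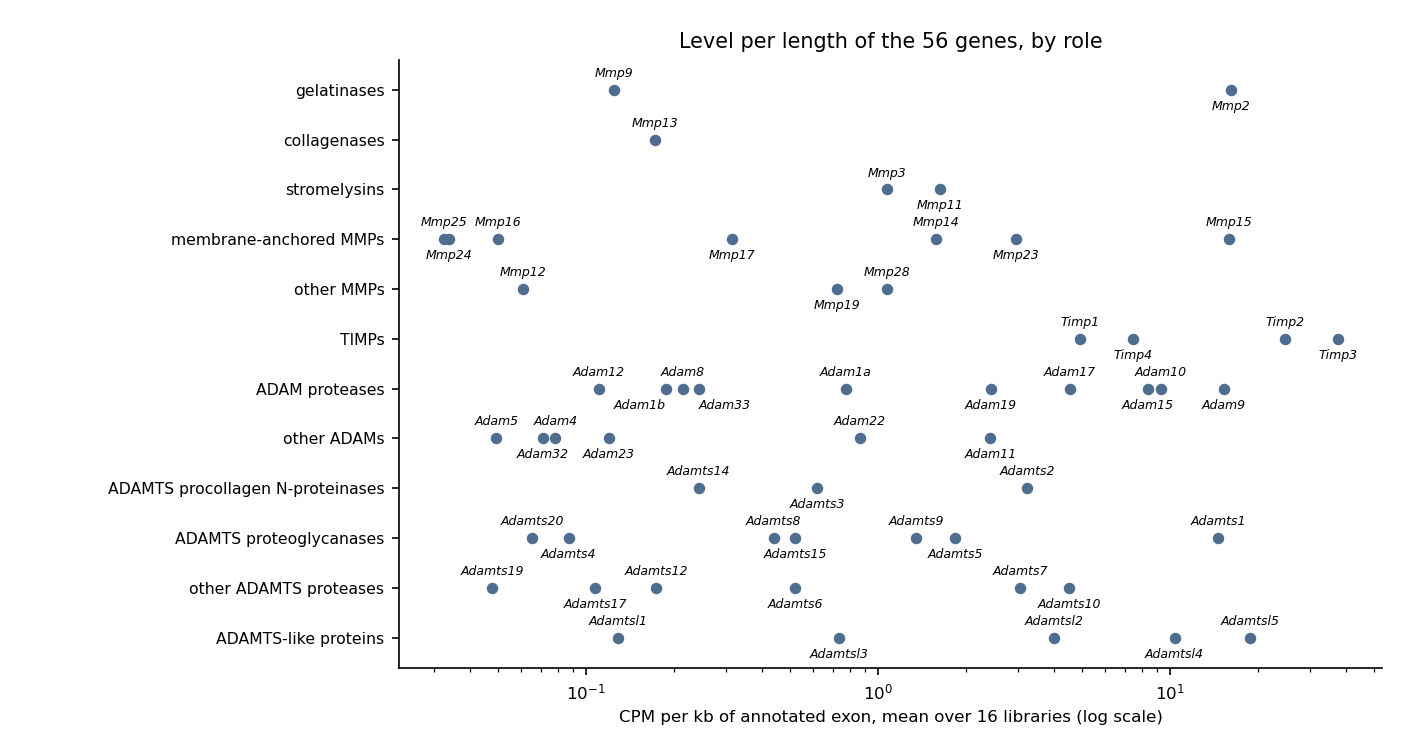
Level per length of each of the 56 genes (one point a gene, CPM per kb of annotated exon, mean over 16 libraries, log axis), in rows by role. Timp3 (37.4) and Timp2 (24.7) lie furthest right, and 30 genes lie under 1.

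TAC against sham asks which of these genes respond to pressure load, in each genotype. In Ctrl hearts 21 of the 56 members passed the test (adjusted p under 0.05), 17 higher and 4 lower, where 20% of all 18275 genes tested passed, 10.4% higher and 9.6% lower. In KO hearts 29 passed, 21 higher and 8 lower, where 34.3% of all genes passed, 17.8% higher and 16.5% lower. Without the library labelled KO TAC 4, 24 members passed in KO hearts, where 31.0% of all genes did. The calls lost were Adam11, Adamts14, Adamtsl1, Mmp3 and Mmp9. Among the members that stayed called, TAC against sham in KO hearts was then 2.42 on the log2 scale for Timp1 (adjusted p = 2.15e-07), 0.62 for Timp2 (9.95e-06), -0.75 for Timp4 (0.0120), 1.27 for Mmp2 (4.41e-07), 1.22 for Mmp14 (7.40e-06), 1.48 for Mmp23 (1.93e-08), 1.92 for Adamts2 (1.23e-08) and 3.44 for Adamts8 (2.06e-07). All 4 TAC libraries lay above all 4 sham libraries for 15 members and below them for 4 in Ctrl hearts, where 10.5% and 9.97% of all genes did so, and for 21 and 7 members in KO hearts, where 18% and 16.6% did. The median log2 fold change of the members was 0.14 in Ctrl hearts and 0.24 in KO hearts, against 0.00 for all genes in each. In 15 members the change was a rise in both genotypes and in 4 (Adam22, Adam23, Adamts7 and Mmp15) a fall in both, where 8.6% and 7.99% of all genes rose and fell in both. No member passed in opposite directions. The 2 comparisons share no library, but Ctrl hearts after TAC mostly had animal numbers beginning with 25 and sham hearts had none.

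**Figure D2:**
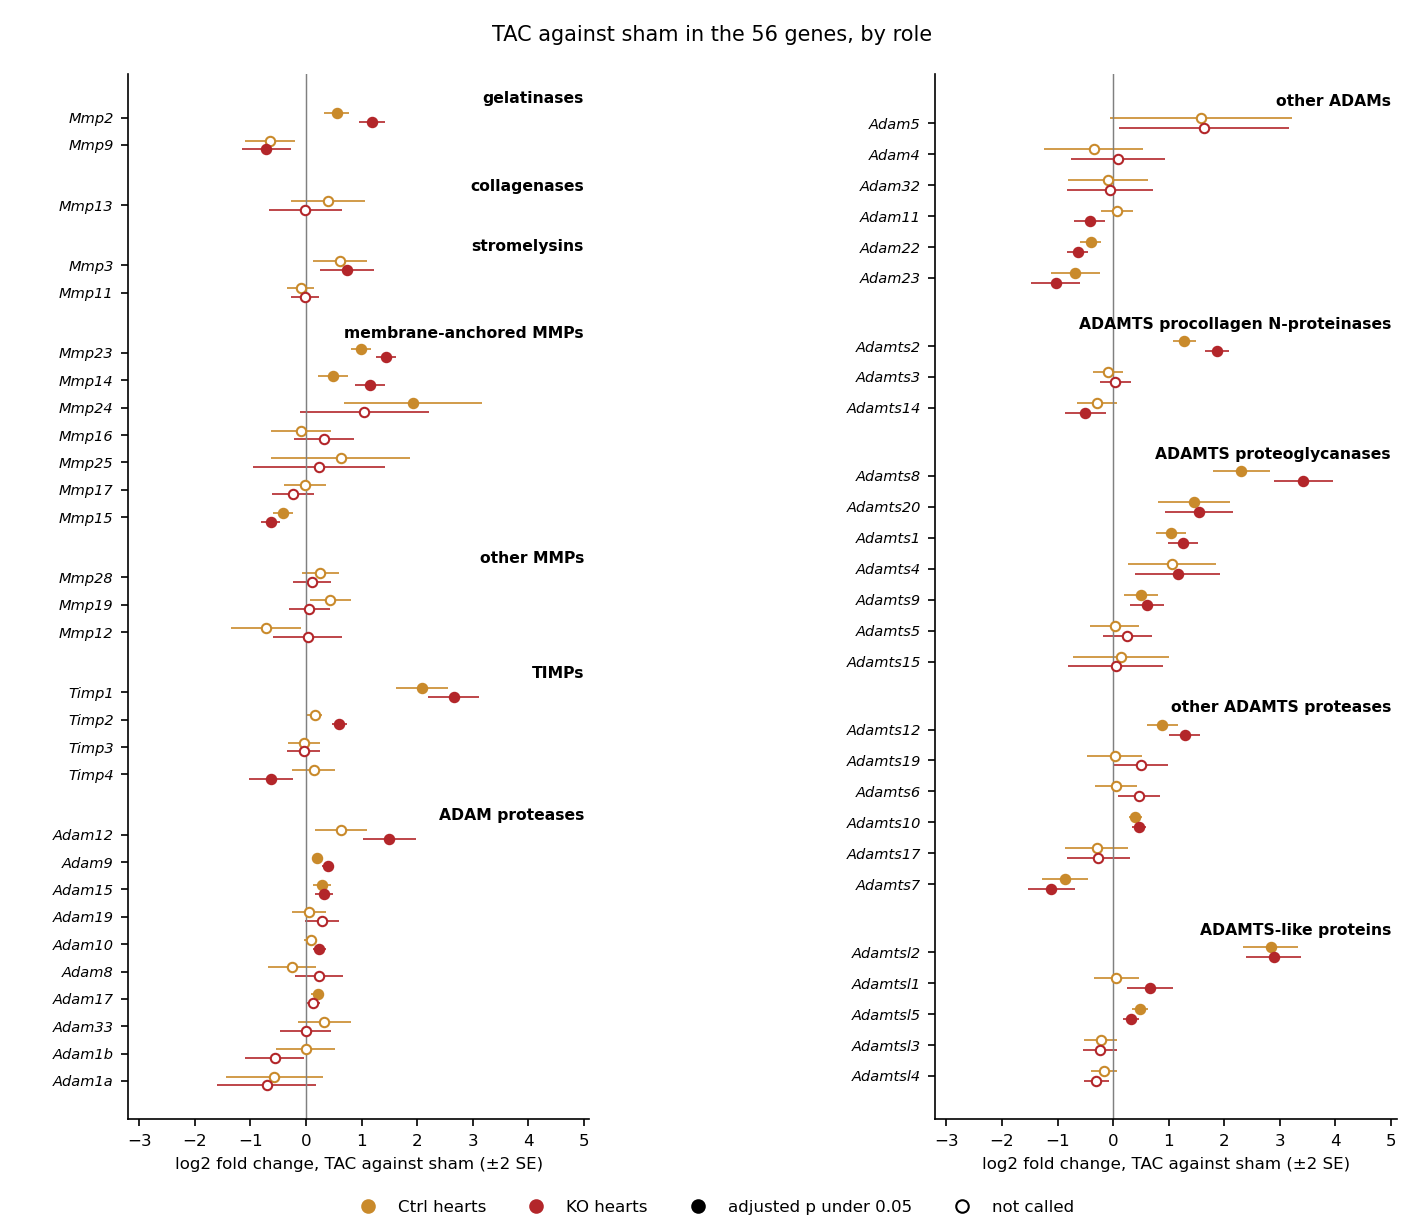
Log2 fold change of TAC against sham with bars of ±2 SE for each of the 56 genes, by role, in Ctrl hearts (orange) and KO hearts (red); filled points had an adjusted p under 0.05. Adamtsl2, Adamts8 and Timp1 lie furthest right in both genotypes, at log2 values of 2.09 to 3.42, and Mmp15, Adamts7, Adam22 and Adam23 lie left of 0 in both.

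Among the inhibitors, Timp1, the inducible member, rose after TAC in both genotypes. It lay at 1.11, 1.55, 1.45 and 1.41 CPM in Ctrl sham and at 1.34, 1.29, 2.05 and 0.91 in KO sham. After TAC it lay at 4.56, 6.69, 5.49 and 6.67 in Ctrl hearts and at 6.79, 7.67, 8.12 and 12.8 in KO hearts. Every TAC library was above every sham library, and the lowest KO TAC library was just above the highest Ctrl TAC library. TAC against sham was 4.25-fold in Ctrl hearts (log2 2.09 ± 0.23 SE, adjusted p = 8.56e-06) and 6.31-fold in KO hearts (2.66 ± 0.23, adjusted p = 2.09e-07). KO TAC against Ctrl TAC was 0.60 ± 0.21 on the log2 scale and did not pass (adjusted p = 0.129), with the highest level in the library labelled KO TAC 4, without which it was 0.36 (adjusted p = 0.322).

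Timp2, the inhibitor that pairs with MMP14, rose after TAC in KO hearts. Its levels were 75.5, 82.1, 91.0 and 92.01 CPM in Ctrl sham and 78.55, 82.6, 80.0 and 83.6 in KO sham. They were 98.2, 83.4, 96.6 and 101 in Ctrl TAC and 128, 131, 116 and 118 in KO TAC. The Ctrl TAC libraries overlapped the sham libraries, whereas every KO TAC library was above all other libraries. The change with TAC was 0.60 ± 0.07 on the log2 scale in KO hearts (adjusted p = 2.51e-06) and 0.16 ± 0.07 in Ctrl hearts (adjusted p = 0.125), and without Ctrl TAC 2 the value in Ctrl hearts passed (0.21, adjusted p = 0.0277). KO TAC against Ctrl TAC was 1.299-fold (0.38 ± 0.07, adjusted p = 0.0124).

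Timp3, which binds to the matrix and also inhibits ADAM17, did not pass in any comparison, at 321 ± 61.2, 297 ± 47.4, 313 ± 40.6 and 288 ± 26.8 CPM (SD, n = 4) in Ctrl and KO sham hearts and in Ctrl and KO hearts after TAC. Its ±2 SE interval for KO TAC against Ctrl TAC ran from -0.41 to 0.17 on the log2 scale. Timp4, the member known for its expression in the heart, fell in KO hearts by 0.63 on the log2 scale (SE 0.19, adjusted p = 0.0215), from 49.5 ± 10.6 to 31.9 ± 7.00 CPM. In Ctrl hearts it was at 44.7 ± 8.74 in sham and 49.2 ± 8.14 after TAC (0.14 ± 0.19, adjusted p = 0.676). All 4 KO TAC libraries were below all 4 Ctrl TAC libraries, but the difference (-0.62 ± 0.19) did not pass (adjusted p = 0.1004).

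The composition of the TIMP pool differed accordingly. As a share of the summed TIMP level per kb, Timp1 was at 2.26% ± 0.580 in Ctrl sham, 2.40% ± 0.996 in KO sham, 8.44% ± 0.920 in Ctrl TAC and 12.0% ± 2.84 in KO TAC (SD, n = 4). Timp4 was at 10.7%, 12.5%, 10.8% and 6.53% in the same order, and Timp3 at 55.6%, 54.0%, 49.3% and 43.0%. The ratio of Timp2 to Timp4 per length was 2.06 to 3.41 in Ctrl TAC and 4.51 to 7.17 in KO TAC, with no overlap. The summed TIMP level overlapped between these groups, at 69.1 to 82.2 and 74.8 to 90.9 CPM per kb. In KO TAC replicates 1 to 3 alone, Timp1 was at 10.7% and Timp4 at 6.24%, and the ratio of Timp2 to Timp4 was 5.51 to 7.17. These shares were not tested.

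**Figure D3:**
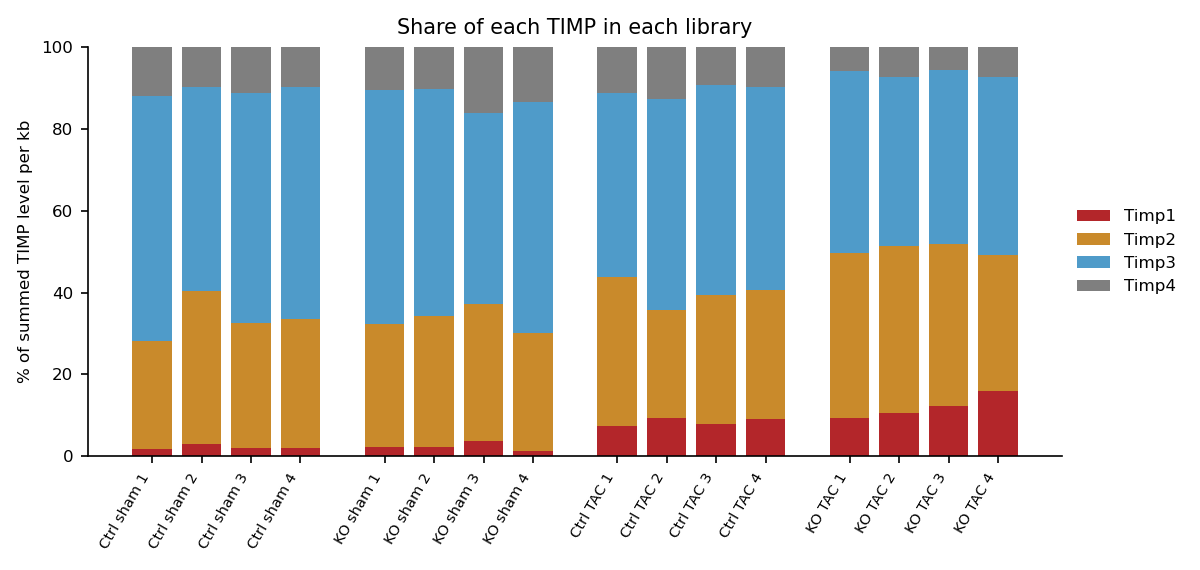
Share of Timp1, Timp2, Timp3 and Timp4 in the summed TIMP level (CPM per kb, in percent), one stacked bar a library. The Timp1 share was 1.38% to 3.77% in the 8 sham libraries and 7.43% to 15.9% in the 8 TAC libraries, and the Timp4 share was lowest in KO TAC (5.54% to 7.41%).

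Of the gelatinases, Mmp2, which cuts denatured and type IV collagen and is made by fibroblasts, rose in both genotypes and was higher in KO TAC. It lay at 33.8, 37.6, 45.0 and 39.4 CPM in Ctrl sham and at 34.45, 38.7, 39.5 and 35.4 in KO sham. After TAC it lay at 62.9, 47.1, 56.5 and 62.1 in Ctrl hearts and at 91.35, 98.9, 77.5 and 69.3 in KO hearts. The sham groups overlapped each other, each TAC group was above both, and the lowest KO TAC library was above the highest Ctrl TAC library. TAC against sham was 1.47-fold in Ctrl hearts (0.55 ± 0.11, adjusted p = 0.00249) and 2.28-fold in KO hearts (1.19 ± 0.11, adjusted p = 8.54e-07). KO TAC against Ctrl TAC was 1.47-fold (0.56 ± 0.11, adjusted p = 0.0194). Mmp9, the gelatinase of neutrophils and macrophages, was not called higher. It fell by 0.71 on the log2 scale in KO hearts (SE 0.22, adjusted p = 0.0193), from 0.551 ± 0.0755 to 0.336 ± 0.0523 CPM, a call lost without KO TAC 4, and was at 0.533 ± 0.0982 and 0.341 ± 0.0480 in Ctrl hearts (adjusted p = 0.0517).

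Of the 7 membrane-anchored MMPs, 3 rose and 1 fell in Ctrl hearts and 2 rose and 1 fell in KO hearts. Mmp14, the membrane-type enzyme that activates proMMP2, lay at 5.596, 9.56, 7.12 and 6.22 CPM in Ctrl sham and at 5.99, 6.23, 7.09 and 6.26 in KO sham. After TAC it lay at 11.46, 8.90, 9.94 and 9.57 in Ctrl hearts and at 13.45, 14.8, 16.3 and 12.4 in KO hearts. Ctrl TAC overlapped Ctrl sham through the replicate at 9.56, and KO TAC lay above all other libraries. The change with TAC was 1.40-fold in Ctrl hearts (0.48 ± 0.13, adjusted p = 0.0160) and 2.22-fold in KO hearts (1.15 ± 0.13, adjusted p = 3.70e-06), and KO TAC against Ctrl TAC was 1.43-fold (0.51 ± 0.13, adjusted p = 0.0446).

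Mmp23, made as a membrane protein and released by cleavage, had a small spread. It lay at 3.61, 4.01, 4.44 and 4.60 CPM in Ctrl sham and at 4.33, 4.04, 4.01 and 4.04 in KO sham. After TAC it lay at 8.87, 7.25, 8.53 and 8.40 in Ctrl hearts and at 11.4, 10.95, 12.1 and 10.1 in KO hearts. The sham groups overlapped, and neither TAC group overlapped sham or the other TAC group. It rose 1.99-fold in Ctrl hearts (0.99 ± 0.09, adjusted p = 7.80e-07) and 2.71-fold in KO hearts (1.44 ± 0.09, adjusted p = 5.10e-09), and KO TAC against Ctrl TAC was 1.35-fold (0.43 ± 0.09, adjusted p = 0.0184). Mmp15, the most abundant membrane-type MMP here, went the other way. It fell by 0.42 in Ctrl hearts (SE 0.09, adjusted p = 0.00245) and by 0.64 in KO hearts (SE 0.09, adjusted p = 2.27e-05), from 101 ± 7.00 to 75.6 ± 10.2 and from 102 ± 8.66 to 65.4 ± 5.97 CPM. Per length, Mmp2 made up 30.2% ± 2.64 and Mmp15 49.0% ± 1.92 of the summed MMP level in Ctrl sham, against 49.97% ± 4.99 and 24.5% ± 3.20 in KO TAC (51.4% and 23.5% in replicates 1 to 3 alone). The Mmp24 call in Ctrl hearts (adjusted p = 0.0363) rests on levels of 0.0645 and 0.240 CPM.

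Among the other MMPs, Mmp3 (stromelysin 1) passed in KO hearts at a low level, from 1.59 ± 0.319 to 2.65 ± 0.448 CPM (0.74 ± 0.24, adjusted p = 0.0230), a call lost without KO TAC 4, and its change in Ctrl hearts was 0.62 ± 0.24 (adjusted p = 0.0835). Mmp11, Mmp12, Mmp13, Mmp19 and Mmp28 did not pass in any comparison.

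The ADAMTS and ADAMTS-like genes held the greatest changes with TAC, Adamtsl2 in Ctrl hearts and Adamts8 in KO hearts. Adamts2, which trims the amino-terminal propeptide from fibrillar procollagens, lay at 13.5, 15.4, 17.7 and 16.9 CPM in Ctrl sham and at 13.15, 14.4, 16.5 and 13.1 in KO sham. After TAC it lay at 45.6, 35.1, 34.85 and 38.8 in Ctrl hearts and at 52.46, 50.1, 59.0 and 46.4 in KO hearts. Every TAC library was above every sham library, and the lowest KO TAC library was above the highest Ctrl TAC library by less than 1 CPM. It rose 2.43-fold in Ctrl hearts (1.28 ± 0.11, adjusted p = 3.18e-07) and 3.64-fold in KO hearts (1.86 ± 0.11, adjusted p = 2.87e-09), and KO TAC against Ctrl TAC was 1.35-fold (0.43 ± 0.10, adjusted p = 0.0350). The other procollagen N-proteinases were not called higher. Adamts3 did not pass in any comparison (3.40 ± 0.528 CPM in KO TAC), and Adamts14 fell in KO hearts by 0.50 (SE 0.18, adjusted p = 0.0410), a call lost without KO TAC 4.

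Of the 7 ADAMTS proteoglycanases, which cut aggrecan and versican, 4 rose in Ctrl hearts and 5 in KO hearts, and none fell. Adamts1, the most abundant, rose from 48.0 ± 7.20 to 99.0 ± 15.4 CPM in Ctrl hearts (1.04 ± 0.13, adjusted p = 6.07e-05) and from 48.0 ± 6.47 to 114 ± 14.6 in KO hearts (1.25 ± 0.13, adjusted p = 3.92e-06). Adamts8 changed most within this group, from 0.544 ± 0.186 to 2.66 ± 0.884 CPM in Ctrl hearts (2.31 ± 0.25, adjusted p = 4.94e-06) and from 0.416 ± 0.0697 to 4.48 ± 0.866 in KO hearts (3.42 ± 0.26, adjusted p = 3.10e-08). Its KO TAC and Ctrl TAC libraries overlapped, and their difference was 0.75 ± 0.22 (adjusted p = 0.0709). Adamts9 (0.50 and 0.61 on the log2 scale in Ctrl and KO hearts) and Adamts20 (1.46 and 1.55) rose in both, the Adamts9 call in Ctrl hearts being lost in 7 of 24 alternatives, and Adamts4 rose in KO hearts (1.16 ± 0.38, adjusted p = 0.0245). Adamts5 and Adamts15 did not pass.

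Of the other ADAMTS proteases, Adamts10, which binds fibrillin, rose by 0.40 and 0.47 on the log2 scale in Ctrl and KO hearts, and Adamts12 by 0.89 and 1.29. Adamts7, known for cutting cartilage oligomeric matrix protein, fell from 27.4 ± 7.57 to 15.01 ± 2.80 CPM in Ctrl hearts (-0.87 ± 0.21, adjusted p = 0.00867) and from 23.7 ± 4.69 to 10.9 ± 1.83 in KO hearts (-1.12 ± 0.21, adjusted p = 0.000887). Among the 5 ADAMTS-like genes, Adamtsl2, whose product binds fibrillin, had the highest fold change after TAC in Ctrl hearts of the 56 members. It went from 7.02 ± 1.84 to 49.8 ± 14.2 CPM in Ctrl hearts (7.12-fold, 2.83 ± 0.25, adjusted p = 4.00e-06) and from 8.46 ± 2.15 to 62.7 ± 10.3 in KO hearts (7.40-fold, 2.89 ± 0.25, adjusted p = 1.04e-06). Its difference between the 2 TAC groups did not pass (0.33 ± 0.22, adjusted p = 0.468). Adamtsl5 rose by 0.48 in Ctrl hearts and 0.32 in KO hearts. Adamtsl1 rose in KO hearts (0.66 ± 0.20, adjusted p = 0.0166), a call lost without KO TAC 4, and Adamtsl3 and Adamtsl4 did not pass.

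Most ADAM proteases differed little between sham and TAC. Of 10, 3 rose in Ctrl hearts and 4 in KO hearts, and none fell. Adam9 went from 56.5 ± 3.16 to 64.9 ± 2.89 CPM in Ctrl hearts (0.20 ± 0.05, adjusted p = 0.00856) and from 56.2 ± 2.79 to 73.9 ± 1.68 in KO hearts (0.40 ± 0.05, adjusted p = 9.14e-06), and its difference between the TAC groups just missed the threshold (0.19 ± 0.05, adjusted p = 0.0540). Adam15 rose by 0.29 and 0.33. Adam17, the sheddase of TNF, rose by 0.21 in Ctrl hearts (adjusted p = 0.0170), and Adam10, a sheddase of Notch, by 0.24 in KO hearts (adjusted p = 0.00293). Adam12, low in the healthy heart, rose in KO hearts from 0.648 ± 0.119 to 1.84 ± 0.387 CPM (1.499 ± 0.24, adjusted p = 8.87e-05), and in Ctrl hearts its change was 0.63 ± 0.23 (adjusted p = 0.0661). Adam8, Adam19, Adam33, Adam1a and Adam1b did not pass. Among ADAMs that lack the catalytic zinc site, Adam22 fell by 0.40 and 0.64 and Adam23 by 0.68 and 1.04 in Ctrl and KO hearts, and Adam11 fell by 0.42 in KO hearts (adjusted p = 0.0294), a call lost without KO TAC 4. KO TAC against Ctrl TAC was -0.51 ± 0.14 for Adam11 and did not pass (adjusted p = 0.0610). Adam4, Adam5 and Adam32, of the testis, lay under 0.3 CPM in every group mean and did not pass.

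KO against Ctrl asks what loss of Cardinal changes. In sham hearts none of the 56 members passed by edgeR or by DESeq2, where 0% and 0.0164% of all genes passed. By edgeR none had an unadjusted p under 0.05, where 2.62% of all genes did. Cardinal itself, at a log2 difference of -2.92, did not pass by edgeR (adjusted p = 0.9998), but did without KO TAC 4 (adjusted p = 0.00258). The main fit missed the deleted gene, and 0 calls in it do not show equal levels. In the fit without KO TAC 4 no member passed either, where 0.00541% of all genes did. No member's sham groups were without overlap, where KO sham lay above Ctrl sham for 0.941% of all genes and below it for 0.837%. The members' log2 differences ran from -0.48 (Adam32) to 0.76 (Mmp24), both genes of few counts. In TAC hearts 5 members passed, all higher in KO TAC: Mmp2, Mmp14, Mmp23, Timp2 and Adamts2. The background was 2.68% of all genes, 1.36% higher and 1.32% lower. At an unadjusted p under 0.05 there were 17 members, against 18.5% of all genes. The libraries did not overlap for 9 members that were higher in KO TAC and for 3 that were lower (Timp4, Adamts7 and Adamts14), where 5.55% and 4.99% of all genes did so.

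**Figure D4:**
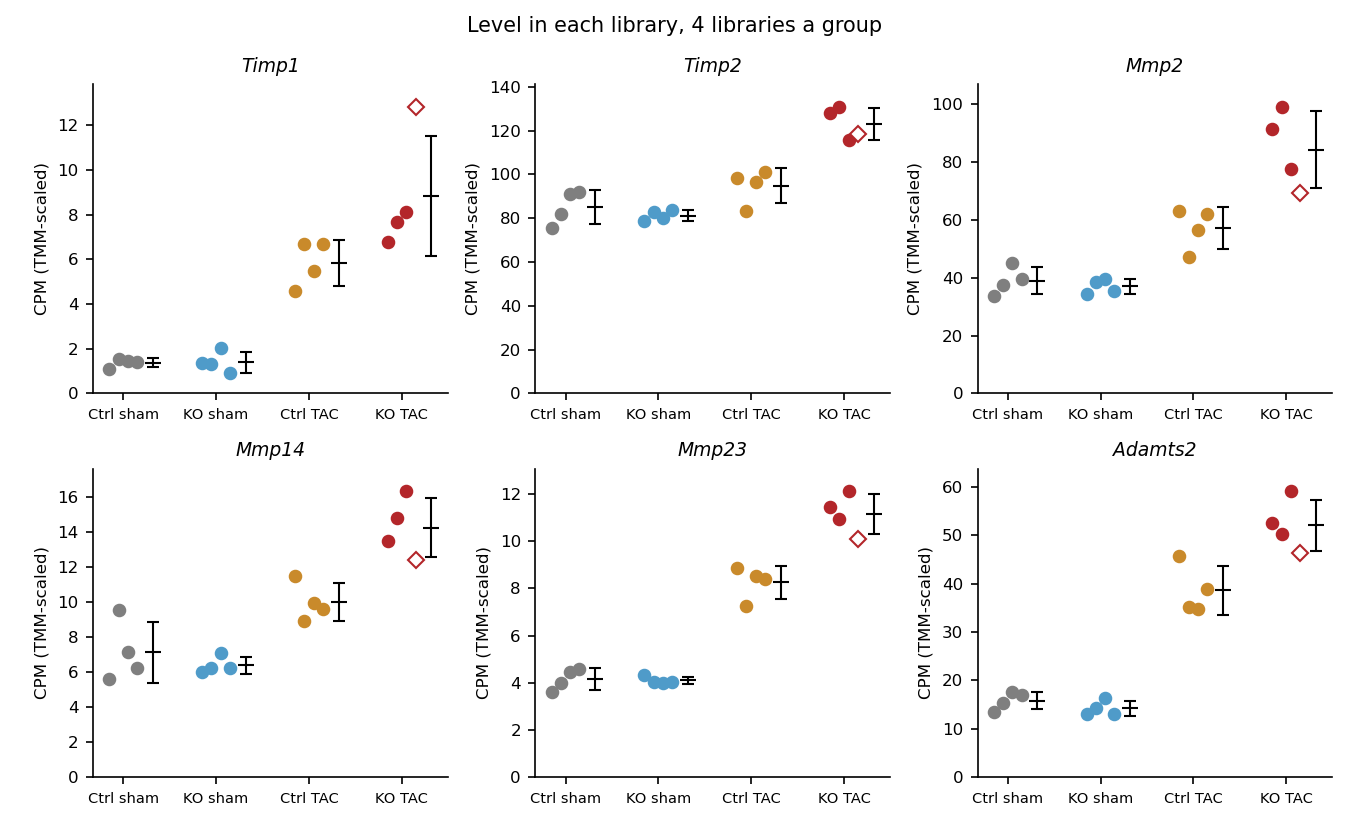
CPM (TMM-scaled) in each of the 16 libraries for 6 genes, one point a library, with the mean and SD of each group in black; the open diamond is the library labelled KO TAC 4. In all 6 panels the lowest KO TAC library lies above the highest Ctrl TAC library, and for Adamts2 the gap is 45.6 to 46.4 CPM.

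Without the library labelled KO TAC 4 all 5 remained called, at log2 differences of 0.64 for Mmp2 (adjusted p = 0.00907), 0.57 for Mmp14 (0.0405), 0.48 for Mmp23 (0.0169), 0.40 for Timp2 (0.0147) and 0.48 for Adamts2 (0.0295). KO TAC then held only animal numbers beginning with 3, against 3 Ctrl TAC libraries beginning with 25. Any comparison of the TAC groups without that library is thus tied more closely to number series. With all 16 libraries and number series as a term in the fit none of the 56 passed. Of all genes 0.0657% passed, against 2.68% without this term. The differences were then 0.42 for Mmp2 (adjusted p = 0.131), 0.38 for Mmp14 (0.251), 0.35 for Mmp23 (0.130), 0.34 for Timp2 (0.102) and 0.30 for Adamts2 (0.199). Among animal numbers beginning with 3, with 1 Ctrl TAC and 3 KO TAC libraries, KO over Ctrl was 1.42-fold for Mmp2, 1.29 for Mmp14, 1.296 for Mmp23, 1.27 for Timp2 and 1.18 for Adamts2. Among those beginning with 25, with 3 Ctrl TAC libraries and the library labelled KO TAC 4, these were 1.25, 1.31, 1.25, 1.26 and 1.28-fold. One of the groups is a single library in each series, so neither allows a replicated test. Leaving out Ctrl TAC 2 left Timp2 as the only member called, where 0.342% of all genes were.

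**Figure D5:**
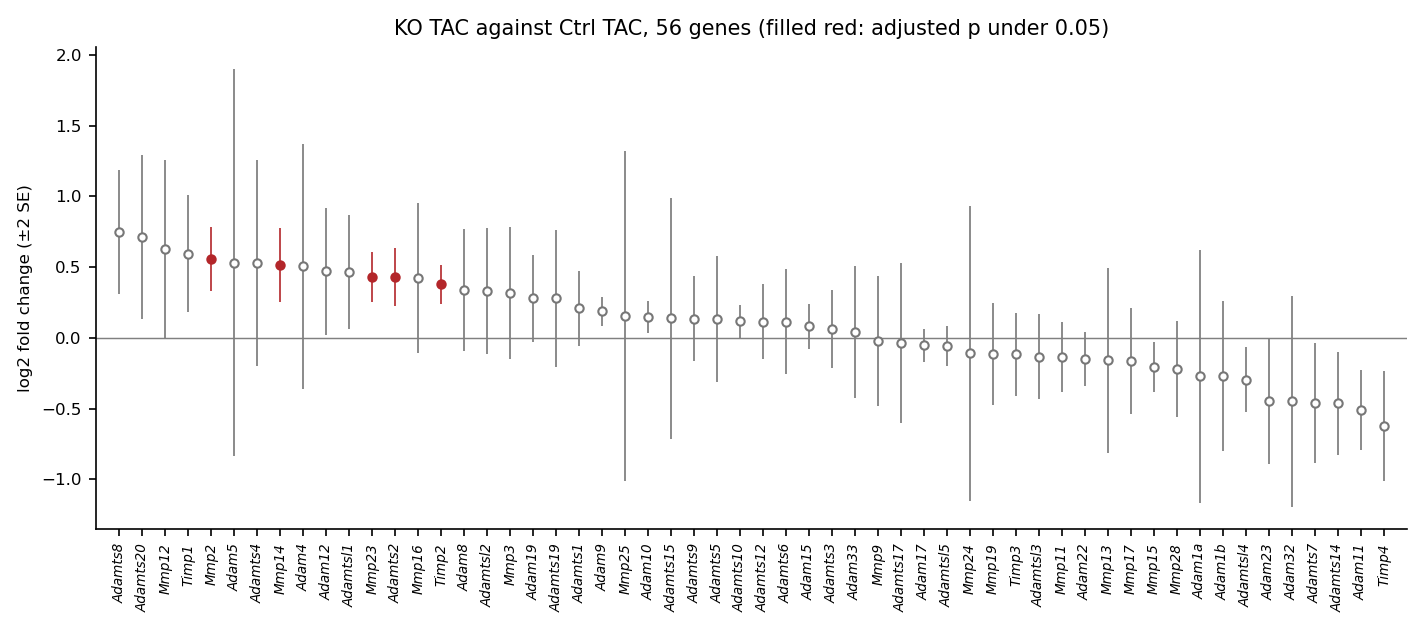
Log2 fold change of KO TAC against Ctrl TAC with bars of ±2 SE for the 56 genes in order of size; filled red points had an adjusted p under 0.05. The 5 red points lie between 0.38 and 0.56, among open points of the same size with longer bars.

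The genotype by surgery interaction asks whether the response to TAC differed between genotypes. No member passed by edgeR, where 0.0109% of all genes did, and 11 members had an unadjusted p under 0.05 against 11.1% of all genes. The interaction on the log2 scale was 0.63 ± 0.16 for Mmp2 (adjusted p = 0.198), 0.67 ± 0.19 for Mmp14 (0.236), 0.45 ± 0.13 for Mmp23 (0.238), 0.45 ± 0.10 for Timp2 (0.142) and 0.58 ± 0.15 for Adamts2 (0.195). By DESeq2 it passed for Mmp2, Timp2 and Adamts2. DESeq2 called 0.722% of all genes here. Without the library labelled KO TAC 4 edgeR again called no member, with Mmp2 at 0.72 and Timp2 at 0.47 (adjusted p = 0.117 for each). Of the 10 members that passed after TAC in KO hearts alone, only Timp2 passed the interaction, and only by DESeq2. Among all genes 34.3% passed after TAC in KO hearts, while 8.6% were called higher and 7.99% lower in both genotypes. Many genes outside this family thus also passed in KO hearts alone, and such calls do not set these members apart.

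Fibroblast marker levels moved with these genes. The summed CPM of 8 fibroblast markers was 1242 to 1405 in Ctrl sham, 1288 to 1345 in KO sham, 1476 to 1864 in Ctrl TAC and 1877 to 2142 in KO TAC, and 0 of the 8 passed between the TAC groups. The summed CPM of 6 markers of activated fibroblasts was 33.6 to 56.1, 39.9 to 47.0, 194 to 391 and 592 to 737 in the same order, and 5 of the 6 were higher in KO TAC (Postn, Cilp, Thbs4, Comp and Cthrc1), Fap being the exception. The summed CPM of 8 cardiomyocyte markers was 41913 to 46236 in Ctrl TAC and 35378 to 37867 in KO TAC, and 2 of the 8 (Myh6 and Ryr2) were lower in KO TAC. Small sums separated too, with 4 atrial markers at 8.15 to 10.5 in Ctrl TAC and 13.1 to 19.7 in KO TAC (Dkk3 higher) and 7 T and B cell markers at 1.28 to 1.92 and 2.17 to 3.30 (0 of 6 tested passed). Macrophage markers, summed over 8, were also lower in sham hearts, at 131 to 165 CPM in Ctrl sham and 122 to 145 in KO sham. After TAC 3 of the 8 were called higher in Ctrl hearts and 6 in KO hearts, as were 3 and 6 of the 8 fibroblast markers. Of all genes, 10.4% and 17.8% were called higher. Between the TAC groups the macrophage sums overlapped, at 178 to 193 and 161 to 211 CPM, with 1 (Cd163) lower in KO TAC. Of 7 endothelial markers 0 passed. Between the TAC groups 1.36% of all genes were called higher in KO TAC and 1.32% lower. Without the library labelled KO TAC 4 the calls between the TAC groups were kept except for Cilp, and the activated fibroblast sum in KO TAC was 628 to 737. The part of these cell types in the results above was not tested. In whole tissue, more cells of a type and more RNA per cell cannot be told apart.

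The genes that control matrix proteases were listed as 29 proprotein convertases, plasminogen activators, serpins, receptors and trafficking partners, of which 27 were tested. As background for this and the following lists, 10.4% of all genes rose and 9.6% fell after TAC in Ctrl hearts. In KO hearts 17.8% rose and 16.5% fell, and between the TAC groups 1.36% were higher and 1.32% lower in KO TAC. Of the 27 control genes, 9 rose and 2 fell after TAC in Ctrl hearts and 15 rose and 5 fell in KO hearts. In KO TAC against Ctrl TAC 3 were higher. These were Serpine2, an inhibitor of thrombin and plasminogen activators (0.57 ± 0.09, adjusted p = 0.00753), Reck, a membrane-anchored MMP inhibitor (0.37 ± 0.08, adjusted p = 0.0294), and Plat, the tissue plasminogen activator (0.36 ± 0.09, adjusted p = 0.0414). Of 19 other matrix-processing proteases tested, 6 rose and 2 fell in Ctrl hearts and 9 rose and 4 fell in KO hearts. Between the TAC groups Ctsk, a collagen-cutting cathepsin, was higher in KO TAC (0.60 ± 0.12, adjusted p = 0.0184), and Mme (neprilysin; -0.71 ± 0.13, adjusted p = 0.0131) and Tll2, a tolloid-like protease (-1.14 ± 0.28, adjusted p = 0.0403), were lower. Of 21 substrates tested, 11 rose in Ctrl hearts and 14 in KO hearts, and none fell. In KO TAC 5 were higher, led by Comp (1.63 ± 0.31, adjusted p = 0.0194), a substrate of Adamts7 and also one of the activated fibroblast markers above. Next came the proteoglycan Bgn (0.59 ± 0.10, adjusted p = 0.0104), the chemokine Cx3cl1 (0.41 ± 0.10, adjusted p = 0.0422) and the collagen chain Col1a2 (0.40 ± 0.10, adjusted p = 0.0375). Without the library labelled KO TAC 4 the 6 protease and control genes stayed called, and of the 5 substrates Comp, Bgn and Fn1 did, while Cx3cl1 and Col1a2 did not. No gene of the 3 lists passed between the sham groups. The median log2 difference between the TAC groups was 0.04, 0.12 and 0.37 for the 3 lists, against 0.00 for all genes.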

How the data were processed

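Poly(A) RNA from the apex of 16 mouse hearts (4 per group) was sequenced as paired reads. The authors deposited raw gene counts, one column a library. The submitters' processing notes name cutadapt 2.3, FastQC, HISAT2 2.1.0, edgeR 3.26.1 and build GRCm38, with no order, and the counting tool is not given in the sources used here. Ensembl IDs were named from GENCODE M21 (99.5% matched). Counts were scaled by TMM in edgeR 4.0.16 (R 4.3.3), filterByExpr kept 18275 genes, all 56 members among them, and a quasi-likelihood model with 1 mean per group was fitted to all 16 libraries. The 5 contrasts were adjusted by Benjamini-Hochberg over all genes tested, and a call is an adjusted p under 0.05. SE is the log2 fold change over the square root of F, and intervals are ±2 SE. In counts simulated for KO against Ctrl in TAC hearts (18074 genes), 200 genes with a mean above 1 CPM were changed. Of those changed by log2 1, 95% were called, and of those changed by log2 2, 97%, as were 5 unchanged genes. Smaller changes, such as the 0.38 to 0.56 of the members called in TAC hearts, were not simulated. DESeq2 1.42.0 and 23 other settings were alternatives.

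For TAC against sham the genes named include the 4 TIMPs, Mmp2, Mmp14, Adamts2, all called members and the 5 not-called members with the highest level per length. For KO against Ctrl in TAC hearts and the interaction, values are given for the 5 members called in TAC hearts. Values given there for other members follow no set rule. For the other lists, values are given for up to 4 called genes with the greatest change. Members, lists and tests were chosen with earlier results of these data known. Adam4, Adam5, Adam32 and some other low members are named although they were not called. Replicate numbers follow the order of deposit. The labels give an animal number a library, and p-values measure the spread between these animals.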

Additional observations from a re-analysis of the deposited data

Results flagged for a closer look

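A library was marked where its gap to the nearest of the other 3, divided by the group's range, exceeded Dixon's 95% critical value for 4 samples. This marked 13 of 224 groups of members (5.80%), where chance marks about 1 in 20. Cardinal stood apart in the library labelled KO TAC 4 (4.55 CPM, against 0.276 to 0.371 in the other 3) and in Ctrl TAC 1 (8.02, against 2.69 to 3.37).

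Of the TIMPs, Timp3 was low in Ctrl sham 2 (229 CPM, others 346 to 356) and in Ctrl TAC 1 (252 CPM, others 327 to 340). Of the MMPs, Mmp23 was at 4.33 CPM in KO sham 1 (others 4.01 to 4.04), Mmp12 at 0.770 in KO sham 2 (others 0.348 to 0.387), Mmp28 at 6.38 in Ctrl TAC 2 (others 4.09 to 4.29), Mmp24 at 0.418 in Ctrl TAC 2 (others 0.167 to 0.198) and Mmp25 at 0.0975 in Ctrl TAC 4 (others 0.209 to 0.229). Adam10 was low in Ctrl sham 1 (40.8 CPM, others 43.8 to 43.9) and in Ctrl TAC 2 (39.4, others 47.1 to 48.2). Adam19 was at 21.4 CPM in KO sham 2 (others 14.6 to 15.1), Adamts1 at 58.8 in Ctrl sham 4 (others 43.7 to 45.5), Adamts15 at 10.2 in KO TAC 3 (others 4.01 to 4.81) and Adamtsl5 at 94.9 in Ctrl TAC 3 (others 105 to 107).

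Of 48 groups of ratios, shares and sums, 4 were marked. Mmp14 per Timp2 was 0.0579 in KO sham 3 (others 0.0489 to 0.0499), Timp2 per Timp4 was 2.06 in Ctrl TAC 2 (others 3.22 to 3.41), the Timp2 share of the TIMP level was 33.4% in KO TAC 4 (others 39.7% to 40.8%) and the Timp3 share was 46.5% in KO sham 3 (others 55.6% to 57.2%).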

How the results depend on the processing

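The number of members called was within 1.5 times in all 24 alternatives for TAC against sham in Ctrl hearts and in KO hearts. When 1 library was left out, it was 17 to 24 of 56 in Ctrl hearts, where 14.6% to 20.0% of all genes were called. In KO hearts it was then 23 to 30, where 28.9% to 35.3% of all genes were called. For KO against Ctrl in sham hearts the number of members called was 0 in all alternatives. For KO TAC against Ctrl TAC it was 5, but 9 by DESeq2 (7 higher, 2 lower), 3 in the fit to 8 libraries, 2 without Ctrl TAC 2 and KO TAC 4 together, 0 with number series as a term, and 1 to 6 when 1 library was left out: 1 without Ctrl TAC 2, 2 without Ctrl TAC 3, KO TAC 2 or KO TAC 3, and 3 without KO TAC 1 or KO sham 2. The share of all genes called moved with it, from 2.68% to 6.46% by DESeq2, 0.877% in the fit to 8 libraries, 0.594% without both libraries, 0.0657% with number series, and 0.342%, 1.03%, 0.817%, 0.452%, 1.4% and 1.74% without Ctrl TAC 2, Ctrl TAC 3, KO TAC 2, KO TAC 3, KO TAC 1 and KO sham 2. Of 24 alternatives, Timp2 was called in 23, Mmp23 in 20, Mmp2 in 19, Adamts2 in 15 and Mmp14 in 11. The interaction called 0, and 3 by DESeq2. For Cardinal the edgeR log2 difference ran from -3.02 to -2.76 in sham hearts and from -3.64 to -1.08 in TAC hearts when 1 library was left out, and it passed only without KO TAC 4 (-2.92 and -3.64). After TAC, 15 of the 21 calls in Ctrl hearts and 22 of the 29 in KO hearts were kept in every alternative. Those lost in at least 1 were Adam15, Adam17, Adam23, Adamts9, Mmp14 and Mmp24 in Ctrl hearts and Adam11, Adamts4, Adamts14, Adamtsl1, Mmp3, Mmp9 and Timp4 in KO hearts.

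Values that changed sign were near 0 and not called. When 1 library was left out, Timp3 ran from -0.17 to 0.054 for TAC in Ctrl hearts, from -0.14 to 0.034 for TAC in KO hearts and from -0.11 to 0.12 for the interaction. In sham hearts KO against Ctrl then ran from -0.26 to 0.020 for Mmp14, from -0.032 to 0.063 for Mmp15, from -0.14 to 0.0031 for Mmp2 and from -0.21 to 0.18 for Timp1. With animal numbers starting with 33 as a term, Mmp15 was -0.068 and Timp1 -0.20. With number series as a term, Timp4 was -0.080 for TAC in Ctrl hearts, and Timp3 was 0.041 for KO TAC against Ctrl TAC and 0.15 for the interaction, which was 0.011 without the filter. The causes were not tested. No paired analysis was possible because the labels carry no replicate numbers shared between groups.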
